A study of Mus musculus with 2 samples.

Results

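The genes described here are the type 2 cytokine genes Il4, Il5, Il9 and Il13, the receptor chain genes Il4ra, Il13ra1, Il13ra2 and Il5ra, and the transcription factor genes Stat6 and Gata3. They were taken by the gene symbol that the array platform's annotation gives to each transcript cluster, a group of probes summarised to 1 value and called a probe set here. All 10 were found, among 22180 genes with a symbol of their own. Where probe sets shared a gene, the brighter by its mean over both arrays stood for it. Total RNA came from nasal mucosa of C57BL/6 mice aged 4 to 6 weeks, after the protease allergen papain or after phosphate-buffered saline (PBS), the vehicle, both labelled day 3. A single Affymetrix Mouse Gene 2.0 ST array was run per group, and per the design text 4 samples were combined into the specimen, with no statement of whether that number applies to each array. With 1 array in each group the differences below have no replicate check and no test, and precision is limited by the number of arrays. The study title names IL-33 and innate immunity, and the comparison of papain with PBS addresses how the mucosa differed after protease exposure.

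Interleukins 4, 5, 9 and 13 are the cytokines of type 2 immunity, made mainly by T helper 2 cells and group 2 innate lymphoid cells under the control of the transcription factor GATA3. IL-4 and IL-13 share a receptor of the chains IL-4Rα and IL-13Rα1, which act through Janus kinases (JAK) on STAT6, while IL-13Rα2 binds IL-13 as a decoy. IL-5 acts on eosinophils through IL-5Rα and the shared beta chain. In the airway this axis is known for eosinophil recruitment, mucus secretion and the induction of chitinase-like proteins.

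None of the 10 genes differed 2-fold between the arrays. Over all 22180 genes, 2.56% differed by 2-fold or more in either direction. The 4 cytokine genes all had ratios above 0, at low signals, while the receptor chains differed little and Stat6 and the brighter Gata3 probe set read lower after papain. Values are log2 array signals, and a ratio is the papain minus the PBS value on that scale. The median ratio of the 10 genes was 0.01, from -0.36 to 0.61, against -0.03 over all genes. At 1.5-fold as deposited, 1 of the 10, Il4, was higher and 0 were lower. Of all genes 9.72% passed that threshold, 5.38% upward and 4.34% downward.

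Low array signals carry little information on transcript, so each signal was set against 33 genes of other tissues, such as liver, pancreas and testis genes. Their median, called background level here, was 4.94 after papain and 4.87 after PBS. Their 95 percentile was 6.50 and 6.55. Il4ra, Il13ra1 and Stat6 exceeded that percentile in both arrays. Il4, Il9, Il13ra2 and Il5ra were under background level in both, so their ratios compare array signals and do not measure a fold in transcript. Il5 crossed background level between the arrays, and Il13 and Gata3 lay between it and the 95 percentile. Against this, 13 of 13 measured epithelial markers of nasal mucosa and 7 of 7 olfactory neuron markers exceeded the 95 percentile in both arrays.

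**Figure D1:**
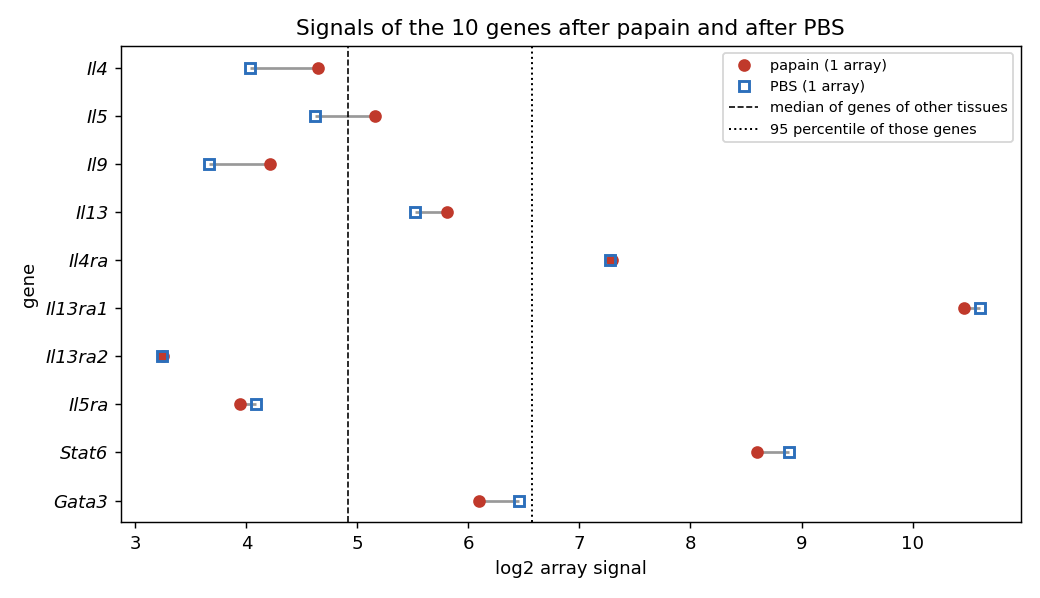
Log2 array signal (x axis) of each of the 10 genes (y axis) in the papain array (filled circles) and the PBS array (open squares), 1 array each, with the median and 95 percentile of 33 genes of other tissues over both arrays as vertical lines. Il4ra, Il13ra1 and Stat6 lie right of the dotted line in both arrays, and for Il4, Il5, Il9 and Il13 the papain value lies right of the PBS value.

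Il4 encodes the cytokine that drives T helper 2 differentiation and IgE class switching. Its signal was 4.65 after papain and 4.03 after PBS, a ratio of 0.61. Both values were under background level. The ratio passed 1.5-fold as deposited and after centring on the median ratio, at 0.65. It did not pass after quantile normalization at 0.53, after loess at 0.54 or with 16 added to the linear signals at 0.34. After centring on the median ratio Il9 passed 1.5-fold too, at 0.59. Among the 5500 genes whose mean signal was under background level, 9.91% were at least 1.5-fold higher, and 90.9% had a lower ratio than Il4.

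Il5 encodes the growth and survival factor of eosinophils. It read 5.16 after papain, above background level, and 4.61 after PBS, under it, a ratio of 0.55. Il9, whose product acts on mast cells and epithelium, read 4.22 against 3.66, a ratio of 0.56, with both values under background level. Among genes of mean signal under background level, 88.8% had a lower ratio than Il5 and 89.1% a lower ratio than Il9. Both cytokines thus lay in the upper part of the range of such dim genes, inside its central 95%, which ran from -0.89 to 1.14.

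Il13 encodes the cytokine that drives mucus secretion and airway hyperreactivity. It was the 1 cytokine gene above background level in both arrays, at 5.81 after papain and 5.52 after PBS. Its ratio was 0.29, a 1.22-fold difference, and 78.5% of genes in the same range of mean signal had a lower ratio. The spread between probe sets of 1 gene gives a scale for such differences: over 1082 genes with 2 or more probe sets, 1 log2 ratio had an SD of 0.32. That SD measures probe set error and leaves out the spread between animals. For probe sets under the 95 percentile of other tissues, where the 4 cytokine genes lay, the SD was 0.34. The Il13 ratio was smaller than both SDs, and those of Il4, Il5 and Il9 were larger as deposited. With 16 added to the linear signals, Il4, Il5 and Il9 had 0.34, 0.35 and 0.27.

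Ratios depended on signal in these arrays, and the cytokine genes were dim. Of genes with mean signals under background level 57.1% had ratios above 0, with a median of 0.06, against 34.4% and a median of -0.10 among the 9946 genes above the 95 percentile. After a loess correction of the ratio for mean signal these shares were 52.6% and 46.9%. Of the 33 genes of other tissues, 22 had ratios above 0, with a median of 0.13 and a range from -0.67 to 0.74. After loess 23 of these 33 were above 0, with a median of 0.08. The loess ratios were 0.54 for Il4, 0.47 for Il5, 0.50 for Il9 and 0.25 for Il13, so the 4 ratios stayed above 0. Their median was 0.55 as deposited and 0.48 after loess. Cytokines of related families gave a like count: of Il3, Csf2, Il2, Il7, Il21, Il31, Il6 and Il10, 7 of 8 had ratios above 0 with a median of 0.39, and 6 of the 8 were under background level in both arrays. Over all genes 45.6% of ratios were above 0.

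**Figure D2:**
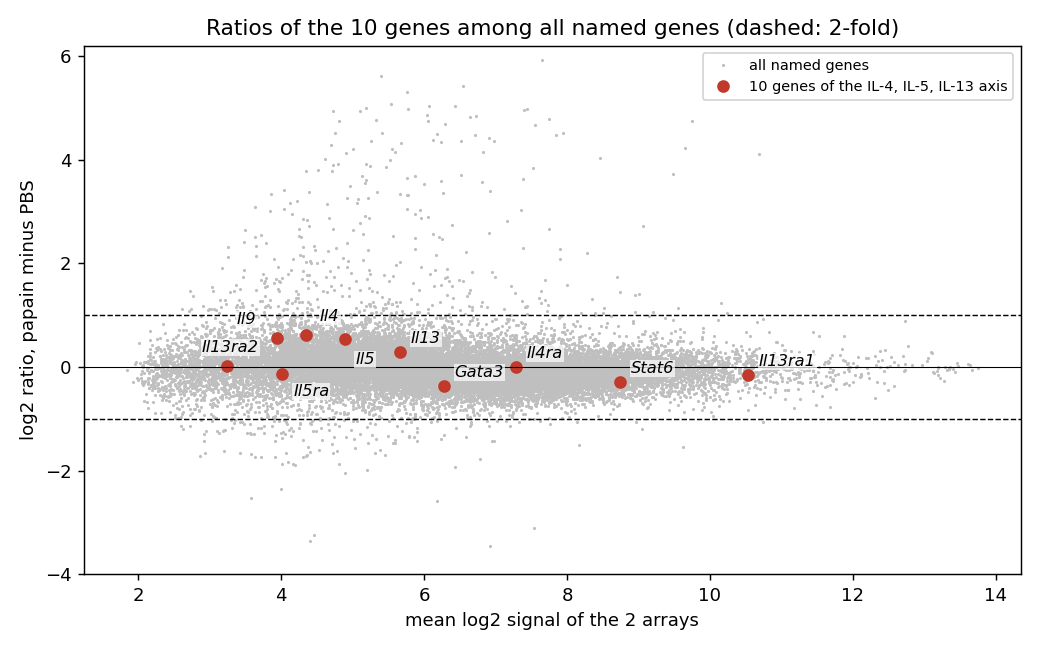
Log2 ratio of papain minus PBS (y axis) against the mean log2 signal of both arrays (x axis) for all named genes (grey) and the 10 genes (red), with dashed lines at 2-fold. The 10 genes lie between -0.36 and 0.61, inside the dashed lines, and the 4 cytokine genes are among the dimmer ones.

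Il4, Il13 and Il5 lie in 1 cluster in the genome. In the RefSeq annotation of GRCm38.p6 the protein-coding order is Kif3a, Il4, Il13, Rad50, Il5 and Irf1. The 3 neighbours read brighter than the 95 percentile of other tissues in both arrays. Kif3a, a motor subunit for cilia, had signals of 8.02 after papain and 7.98 after PBS. Rad50, a DNA repair gene whose body holds the control region of the cytokine cluster, had a ratio of -0.14, and Irf1, an interferon-induced transcription factor, -0.03. These 3 neighbours, brighter than the cytokine genes, thus had ratios close to 0, and the Irf1 ratio turned to 0.06 after loess.

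Promoter windows of the members show where letters of STAT6 and GATA sites occur. RefSeq windows of 250 bases before to 50 after the annotated start (GRCm38.p6) were matched by symbol for all 10 genes, in 11 windows because Il4 has several starts. The STAT6-type motif is TTC and GAA with 4 bases of any kind between them, the spacing that STAT6 prefers, and a match on 1 strand is also a match on the other. It was found in 3 of the 11 windows, those of Il4, Il9 and Il5ra, against 6.95% of all 32851 windows. The general STAT motif, with 3 bases between TTC and GAA and again symmetric, was in 1, another start of Il4, against 8.3%. GATAA on either strand, the core of a GATA site, was in 4 of 11 windows against 25.4%, those of Il4, Il13, Il13ra2 and Il5ra. The GATAA search was added after the sequences had been seen. A match describes letters and is no evidence of binding. The sequences below are those of members with a STAT6-type match and of Il13 with its GATAA. Those of Retnla and Chil4, known targets of the IL-4 receptor pathway, follow for comparison. They run 5′ to 3′ on the gene's strand, and capitals mark every match of the 3 motifs.
Il4, chr11:53618616-53618915, minus strand: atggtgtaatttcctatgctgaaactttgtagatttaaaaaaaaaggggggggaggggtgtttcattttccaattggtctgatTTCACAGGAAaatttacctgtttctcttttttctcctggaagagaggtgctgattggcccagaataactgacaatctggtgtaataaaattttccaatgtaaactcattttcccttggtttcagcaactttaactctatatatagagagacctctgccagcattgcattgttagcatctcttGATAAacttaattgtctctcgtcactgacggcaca
Il9, chr13:56482208-56482507, minus strand: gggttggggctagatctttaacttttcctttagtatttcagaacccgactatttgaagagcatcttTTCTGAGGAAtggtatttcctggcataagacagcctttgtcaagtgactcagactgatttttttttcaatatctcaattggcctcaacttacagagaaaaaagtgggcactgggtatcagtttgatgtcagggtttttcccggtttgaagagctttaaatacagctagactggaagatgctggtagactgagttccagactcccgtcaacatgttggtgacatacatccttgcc
Il13, chr11:53634653-53634952, minus strand: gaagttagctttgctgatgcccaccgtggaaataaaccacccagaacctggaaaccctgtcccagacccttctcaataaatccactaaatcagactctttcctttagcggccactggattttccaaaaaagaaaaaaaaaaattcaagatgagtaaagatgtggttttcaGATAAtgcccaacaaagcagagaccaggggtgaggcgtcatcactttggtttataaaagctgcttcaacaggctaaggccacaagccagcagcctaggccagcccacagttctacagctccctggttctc
Il5ra, chr6:106748988-106749287, minus strand: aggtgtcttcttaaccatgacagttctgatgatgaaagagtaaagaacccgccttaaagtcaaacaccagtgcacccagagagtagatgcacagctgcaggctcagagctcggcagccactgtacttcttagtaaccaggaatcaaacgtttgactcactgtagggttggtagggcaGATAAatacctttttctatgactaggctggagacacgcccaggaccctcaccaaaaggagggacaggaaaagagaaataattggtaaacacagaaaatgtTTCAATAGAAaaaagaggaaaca
Retnla, chr16:48842359-48842658, plus strand: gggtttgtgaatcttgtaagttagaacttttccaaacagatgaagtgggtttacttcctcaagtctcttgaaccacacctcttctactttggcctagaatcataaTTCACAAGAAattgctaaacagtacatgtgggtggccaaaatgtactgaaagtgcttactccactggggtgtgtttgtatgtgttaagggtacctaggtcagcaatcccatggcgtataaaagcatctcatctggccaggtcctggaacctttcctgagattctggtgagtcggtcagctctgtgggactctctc
Chil4, chr3:106219430-106219729, minus strand: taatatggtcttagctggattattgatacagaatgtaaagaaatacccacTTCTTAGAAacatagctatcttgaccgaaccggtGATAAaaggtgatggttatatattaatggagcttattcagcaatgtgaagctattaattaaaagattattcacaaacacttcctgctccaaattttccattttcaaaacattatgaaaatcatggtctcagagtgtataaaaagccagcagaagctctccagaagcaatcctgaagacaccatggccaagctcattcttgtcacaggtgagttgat
Counted from 0 at the annotated start, the STAT6-type match began at -167 in Il4, -184 in Il9, 27 in Il5ra and -145 in Retnla. In Il13 the GATAA began at -80. Chil4 held the general STAT motif, at -200.

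Il4ra encodes the signalling chain shared by the IL-4 and IL-13 receptors. It read 7.29 after papain and 7.28 after PBS, a ratio of 0.01 at a signal above the 95 percentile of other tissues. Il13ra1, the chain that pairs with it on epithelium, read 10.46 after papain and 10.60 after PBS, a ratio of -0.15, also above that percentile. Both ratios were smaller than the SD of 0.23 between probe sets of 1 gene above that percentile. A change of the receptor's transcripts of 2-fold was thus not seen for either chain in this pair of specimens.

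Il13ra2, the decoy receptor and a gene that IL-13 itself is known to induce, read 3.25 after papain and 3.24 after PBS, both under background level. Il5ra, the receptor chain of eosinophils, read 3.95 after papain and 4.09 after PBS, also under background level, with a ratio of -0.14. Neither gene gave a signal from which a difference could be read, and their ratios fell inside the SD between probe sets.

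Stat6 encodes the transcription factor that IL-4 and IL-13 activate, mainly by phosphorylation of protein that is already present. It read 8.60 after papain and 8.89 after PBS, a ratio of -0.29, or 1.22-fold lower. As deposited, the size of the ratio exceeded the SD of 0.23 between probe sets of 1 gene at such signals. It lay inside the central 95% of genes above the 95 percentile, which ran from -0.63 to 0.54, with 22.7% of them lower. After loess the Stat6 ratio was -0.22, inside the SD of 0.23.

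Gata3 encodes the transcription factor of T helper 2 cells and group 2 innate lymphoid cells and is known in several epithelia too. Its probe sets disagreed in direction. The brighter read 6.10 after papain and 6.45 after PBS, a ratio of -0.36. The other read 6.19 after papain and 5.81 after PBS, a ratio of 0.38. Their mean ratio was 0.01, so no direction is given for Gata3. A further probe set that also carries the symbols of other genes read 3.68 and 4.12, under background level in both arrays.

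**Figure D3:**
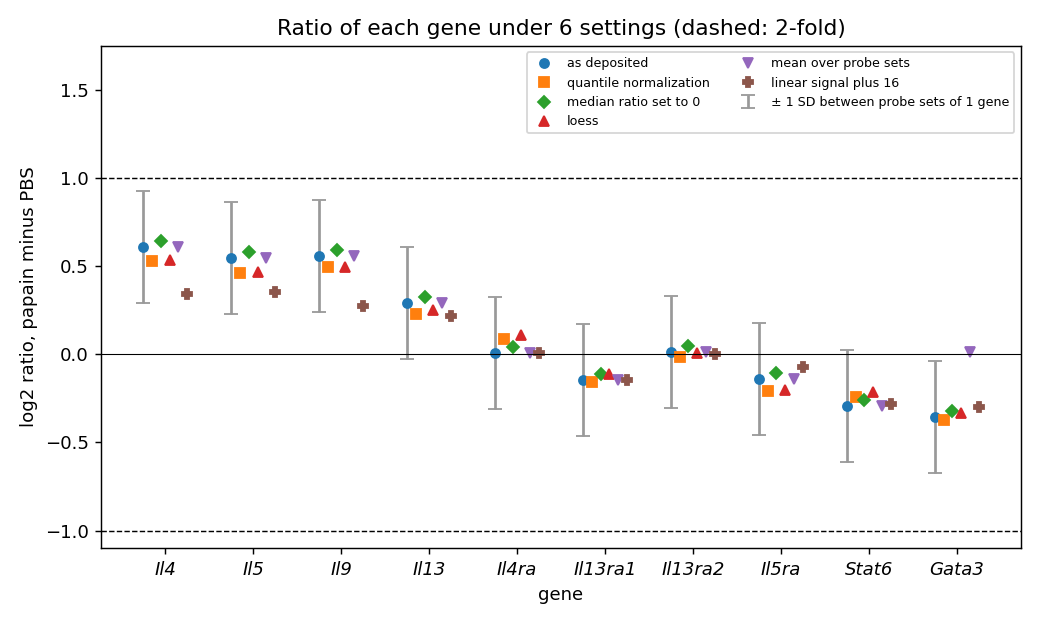
Log2 ratio of papain minus PBS (y axis) of each of the 10 genes (x axis) as deposited and under 5 other settings, with grey bars of 1 SD (0.32) between probe sets of 1 gene around the deposited value and dashed lines at 2-fold. Il4, Il5, Il9 and Il13 stay above 0 under each setting, and Gata3 moves from -0.36 to 0.01 when its probe sets are averaged.

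The partners of these receptors differed in both directions, and none of 7 measured chains reached 2-fold. Their median ratio was 0.04. Csf2rb, the beta chain through which IL-5 signals, read 5.10 after papain and 5.56 after PBS, a ratio of -0.46, below the 95 percentile of other tissues in both arrays. Csf2ra, the receptor chain of the related cytokine GM-CSF and the 1 chain past that percentile, had a ratio of 0.13. Il3ra, the receptor chain of IL-3 and named after its value was seen, had the highest ratio of the list, 0.83, at 6.50 against 5.67. Il2rg, the common gamma chain, was not analysed here.

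Among 10 measured genes of JAK-STAT signalling, 8 had ratios below 0 and 2 above, or 3 above after loess, and none reached 2-fold. The median was -0.15, against -0.10 for genes of such signal, and -0.08 after loess. Jak1, a kinase bound to IL-4Rα, stood apart at 10.28 after papain and 9.53 after PBS, a ratio of 0.75 or 1.68-fold, higher than 96.7% of all genes' ratios. It was 0.74 to 0.79 over all settings tried. Tyk2, a kinase of the IL-13 receptor, had -0.29. Irs1 and Irs2, adaptors that IL-4 receptors engage, had -0.38 and -0.25. A probe set carrying the symbols of both Jak3 and Insl3 had 0.03.

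Inhibitors of cytokine signalling gave small ratios as well. Of 9 measured genes 4 were above 0 and 5 below, with a median of -0.09 that became 0.01 after loess, and none reached 2-fold. Bcl6, a repressor that competes with STAT6 for sites, had the lowest ratio, -0.54, at 8.15 after papain and 8.70 after PBS. Socs1 and Cish, which cytokine signalling induces, had 0.08 and -0.22. Socs2 had 0.12, Ptpn2 0.17 and Pias1 -0.13. Of 16 regulators of helper and innate lymphoid cells, 6 were above 0 and 10 below with a median of -0.03. The 7 brighter of them were below 0, in a signal range where 34.4% of all genes were above 0 and the median was -0.10. Among these were Bhlhe41 at -0.50, Junb at -0.39, Maf, a regulator of Il4, at -0.37 and Nfatc1 at -0.28. Id2 and Rora, included in these 7, had -0.02 and -0.03 and turned above 0 after loess.

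Some known response genes of IL-4 and IL-13 had larger ratios than any of the 10 genes of the axis, whose ratios ran from -0.36 to 0.61. Of 26 measured, 6 read higher after papain by at least 2-fold and 0 lower, where 1.83% and 0.73% of all genes were. The list was drawn up with earlier results of these data known, so the count and the comparison with the 10 genes are descriptions. The list's median ratio was 0.16, with 17 above 0 and 9 below, and 0.54 for its 14 genes above the 95 percentile of other tissues. The 4 cytokine genes, all dimmer than that percentile, had a median of 0.55, so these medians belong to unlike signals. Chil4, a chitinase-like protein, read 12.74 after papain and 8.63 after PBS, a 17.3-fold difference. Chil3, a related protein, read 6.68 against 4.65, the PBS value being under background level. Clca1, a goblet cell product that IL-13 is known to induce, read 7.87 against 6.03, and Itln1, a secreted lectin, 8.03 against 6.86. Retnla, named after its value was seen, read 6.07 against 2.70, the latter under background level. Others of the list read lower, and the examples here were picked after seeing the values. Retnlb had -0.42, at 3.86 after papain and 4.28 after PBS, both under background level. Slc26a4 had -0.55, at low signals of 5.03 after papain and 5.59 after PBS. Cdh26, a brighter gene, had -0.39, at 9.24 after papain and 9.63 after PBS.

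**Figure D4:**
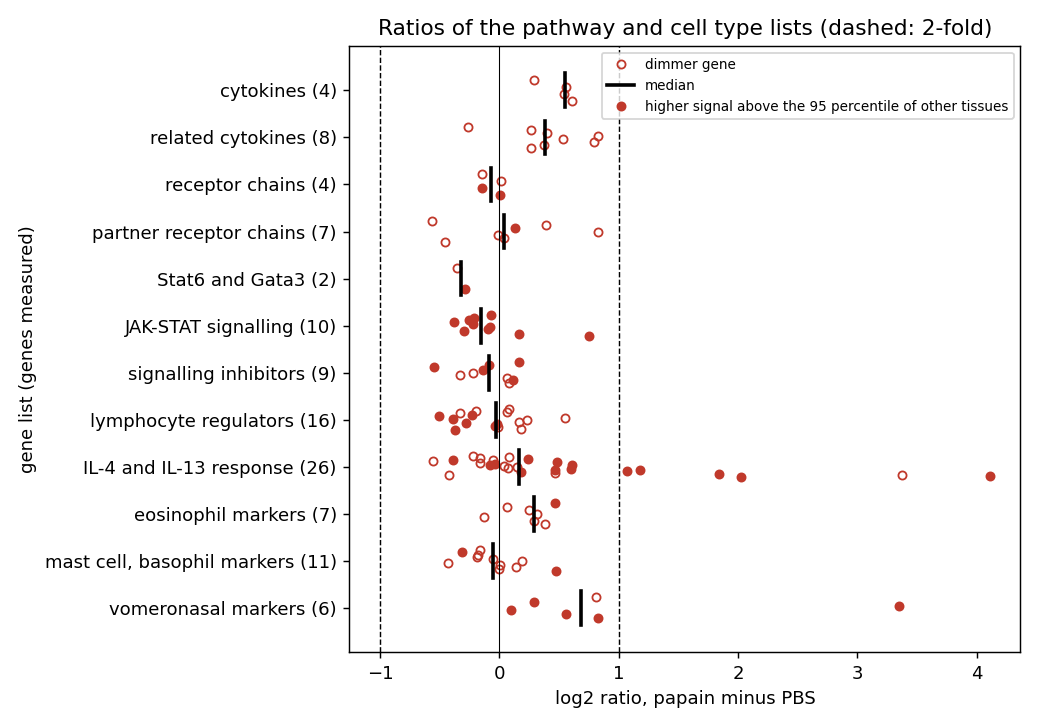
Log2 ratio of papain minus PBS (x axis) of each measured gene of 12 pathway and cell type lists (y axis, number of genes measured), filled where the higher of both signals exceeded the 95 percentile of other tissues, with the list median as a bar and dashed lines at 2-fold. The IL-4 and IL-13 response list has 6 genes past 2-fold and the vomeronasal list 1, and the other 10 lists drawn have none; the remaining lists, neutrophil markers among them, are not drawn.

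Markers of cells that carry or make these products were dim. In bulk RNA, fewer cells of a type and less RNA per cell cannot be told apart. Of 7 measured eosinophil markers 6 had ratios above 0, with a median of 0.29 that was 0.21 after loess. The share above 0 was 45.6% over all genes and 57.1% among genes under background level. Siglecf and Epx read 5.57 against 5.19 and 4.93 against 4.64, below the 95 percentile of other tissues. Prg2, named after its value was seen, was the 1 marker below 0, at 5.15 against 5.28, a ratio of -0.13. For 3 of the 7 markers neither array passed background level. The log2 of the summed signal was 10.19 after papain and 9.77 after PBS. Most of that sum was Alox15, at 9.95 and 9.48, so it says little of the other markers. Alox15, which epithelium and macrophages can express, was the 1 bright gene, with a ratio of 0.47. It also stands in the list of response genes. The T cell list had 0 of 9 markers above the 95 percentile in either array, a median of 0.05 and a summed signal of 8.47 and 8.46. In the group 2 innate lymphoid cell list 4 of 9 ratios were above 0, the median was -0.03 and the summed signal was 9.62 in each array. Il1rl1, Areg and Ptgdr2 of that list had no probe set with their symbol alone and are missing from these values. Its brighter genes Rora and Hlf, which other cells express, had -0.03 and -0.10. Mast cell and basophil markers had -0.06, with Cpa3, a mast cell protease, at 0.47 and Kit at -0.31, 6 of 11 under background level in both arrays, and a summed signal of 9.05 and 9.12.

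Vomeronasal markers, which lie outside this axis, also differed between the arrays. All 6 measured markers had ratios above 0, with a median of 0.69 and a summed signal of 11.65 after papain and 11.25 after PBS. Calr4 read 7.94 against 4.59, Trpc2 had 0.83, Gnao1 0.56 and Meis2 0.29. Olfactory neuron markers had a median of -0.28, with 6 of 7 below 0. Among them were Cnga2 at -0.57, Gnal at -0.47 and Stoml3 at -0.44, while Rtp1 had 0.45. All 7 were above the 95 percentile of other tissues, where 34.4% of all genes had ratios above 0. After loess the olfactory median was -0.19, with 2 of 7 above 0. Epithelial markers had a median of -0.09, close to the -0.10 of all genes above the 95 percentile, with 5 of 13 above 0 and 8 below. Foxj1 had -0.54, Cdh1 -0.33, Bpifa1 -0.28 and Krt14 -0.24, while Epcam, named after its value was seen, had 0.14. The part of these marker differences in the cytokine, Jak1 and response gene ratios was not tested.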

How the data were processed

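The log2 signals per transcript cluster were used as the authors deposited them; the log2 scale was read from the values. The submitters' processing notes name Transcriptome Analysis Console 4.0; how background was corrected, probes summarised and arrays normalized is not given in the sources used here. Of 41345 clusters, 23521 carried 1 gene symbol, 1814 several and 16010 none, and those with 1 were used, giving 22180 genes. The medians of all clusters were 5.70 after papain and 5.64 after PBS. The ratio was papain minus PBS, with no floor on signal, and a gene was counted at 2-fold.

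The members and gene lists were chosen with earlier results of these data known. Named genes were the 10 members, up to 4 genes of each list with the largest absolute ratio among those whose higher signal exceeded the 95 percentile of other tissues (6.57 over both arrays), and Il2rg, Csf2rb, Jak1, Jak3, Tyk2, Socs1, Cish, Rad50, Kif3a, Siglecf and Epx. Genes that describe the locus or a probe set disagreement were added. With 2 arrays no likeness of pattern was computed. Alternatives were averaging probe sets, loess with a span of 0.3, quantile normalization, centring on the median ratio, adding 16 to linear signals, a threshold of 1.5-fold and 2 signal floors. The steps were tested on simulated data. A comparison of member proteins was planned and not run. Python 3.11.15, numpy 2.4.6, pandas 2.3.3, statsmodels 0.14.6 and matplotlib 3.10.9 were used.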

Additional observations from a re-analysis of the deposited data

How the results depend on the processing

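A ratio was taken as moved when it shifted by more than the SD of 0.32 between probe sets of a gene, and a list median by more than that SD over the square root of the list's size. Of 136 values recomputed for 22 results (the ratio of each of the 10 genes, and the median and counts of the 10 genes, the cytokines, the receptor chains and the response genes), 128 stayed within these limits or, for counts, within 1.5 times, and 8 did not. Some of these values could hardly move. Averaging leaves a gene with 1 probe set unchanged, and centring shifts all ratios by the same small amount. The limit of 0.32 also exceeded the size of the deposited ratios of Il13, Stat6 and the 4 receptor chains. The 128 of 136 is thus no measure of robustness. Among the 8, the Gata3 ratio became 0.01 with averaged probe sets. The median of the 10 genes turned negative with a floor on signal, at -0.15 for the 3 genes above the 95 percentile of other tissues and -0.22 for the 4 at or above the median signal of named genes. The cytokine median was 0.31 with 16 added to linear signals. At 1.5-fold on the deposited ratios the count of higher genes was 1 among the 10 and 1, the same gene Il4, among the cytokines. The response gene median was 0.54 for the 14 genes above the 95 percentile and 0.47 for the 17 above the median signal. Floors gave no value for the cytokines, none of which passed either. Il13ra2, at 0.01, was -0.02 after quantile normalization. Across settings the ratios of the 10 genes lay between -0.37 and 0.65. No paired analysis was possible because each group is 1 array.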

Other observations

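Other leukocyte lists differed little as groups. Macrophage and monocyte markers had a median ratio of 0.00 with 5 of 11 above 0, among them Ccr2 and Adgre1 at 0.33 each, and with Cd14 at -0.52 and Cd68 at -0.46. Neutrophil markers had a median of 0.09, with 6 of 9 ratios above 0 and 3 below, where 45.6% of all genes were above 0. Cxcr2, a chemokine receptor, was the 1 past 2-fold, at 6.85 after papain and 5.59 after PBS. Ly6g, named after its value was seen, had the lowest ratio, -0.72, at 3.38 after papain and 4.11 after PBS, both under background level. B cell markers had -0.04, with 0 of 7 above the 95 percentile of other tissues in either array. Of 12 measured genes around the Il4, Il13 and Il5 cluster, 5 had ratios above 0 and 7 below. Their median was -0.04 and became 0.05 after loess. Slc22a5, Slc22a4 and Septin8 had -0.34, -0.30 and -0.05, the last turning to 0.01 after loess. Of the dimmer genes Gdf9, Leap2 and Shroom1 had 0.40, 0.20 and 0.12, and Sowaha had -0.16.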
